A study of Mus musculus with 8 samples.

Results

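The genes described here mark peripheral nerve, and they were followed in ducts of the mouse liver and pancreas and in organoids grown from those ducts. The group holds 30 genes of the 31228 in the deposited table. Its members were picked by gene symbol with no threshold on measured values, though with earlier results of these data known, and all 30 symbols were found. By role, 10 are glial genes, 4 belong to both glia and axons, and 16 are neuronal genes (cytoskeleton, synapse, growth factor receptor and transmitter synthesis).

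Polyadenylated RNA was sequenced from 8 libraries, all from C57BL/6 mice. There was 1 library of epithelium from the extrahepatic bile duct, 1 of epithelium from the pancreatic duct, 3 of bile duct organoids (BDO1 to BDO3, numbered by replicate) and 3 of pancreatic duct organoids (PDO1 to PDO3), and no sample was named as a control. The epithelia were dissected ducts, minced, digested with collagenase IV and put directly into Trizol, with no sort of cell types named in the labels. The organoids were grown from the same kind of digest in Matrigel, in expansion medium with EGF, R-Spondin-1, Noggin, FGF10, Nicotinamide and N-acetylcysteine, first with and then without Wnt3A and Y27632, and were taken after 3 to 4 passages. The labels do not say whether replicate organoids came from separate animals or give the age or sex of the mice, so p-values measure only the spread between these libraries. The study compared how alike the epithelia are and how alike the organoids are. The deposited values imply a depth of 12876468 reads (or pairs) in the shallowest library, the bile duct epithelium, and 20828214 in the deepest, PDO3.

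Nerves reach the bile duct and the pancreas as bundles of axons wrapped by Schwann cells, and local ganglia lie in the wall and among the lobules. Sox10 and Foxd3 are transcription factors of neural crest and its glial descendants, and myelinating Schwann cells add Egr2, Mbp, Pmp22 and Prx. The cell bodies of most sympathetic and sensory axons lie outside these organs, while Schwann cell bodies lie along the nerve within them. Several of these genes are also used elsewhere, for example Ret, Ncam1 and Stmn2 in endocrine cells, Chat in tuft cells, and Mbp, whose locus also encodes the golli proteins of non-neural cells.

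Upstream sequences were available from RefSeq (build GRCm38.p6) for 19 of the 30 genes, as windows of 250 bases before to 50 bases after a start. Shown here are the 250 upstream bases, 5′ to 3′ on the gene's strand, for 4 genes that fell to at most 2 reads in each organoid, chosen to show glial and neuronal roles after their values were seen: the vasoactive peptide Vip, the crest factor Foxd3, the Schwann cell sodium channel Scn7a and the peripheral neurofilament-like Prph. Capitals mark any match, on either strand, to TATAAA, to the cyclic AMP response element TGACGTCA, to its left part TGACG (which also lies within TGACGTCA), or to the SOX-type sequences ACAAAG and ACAATG.
Vip (chr10:5638968-5639217, + strand): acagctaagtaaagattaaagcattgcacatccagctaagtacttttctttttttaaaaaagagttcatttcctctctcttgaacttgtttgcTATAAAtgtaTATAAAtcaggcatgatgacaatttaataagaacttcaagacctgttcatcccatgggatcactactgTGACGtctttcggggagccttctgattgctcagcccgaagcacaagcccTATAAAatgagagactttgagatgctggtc
Foxd3 (chr4:99656049-99656298, + strand): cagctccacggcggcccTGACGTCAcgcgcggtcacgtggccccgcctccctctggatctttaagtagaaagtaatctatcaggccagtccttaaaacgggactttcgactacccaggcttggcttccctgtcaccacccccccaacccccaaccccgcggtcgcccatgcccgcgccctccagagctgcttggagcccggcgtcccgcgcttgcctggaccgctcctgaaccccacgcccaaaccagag
Scn7a (chr2:66784911-66785160, - strand): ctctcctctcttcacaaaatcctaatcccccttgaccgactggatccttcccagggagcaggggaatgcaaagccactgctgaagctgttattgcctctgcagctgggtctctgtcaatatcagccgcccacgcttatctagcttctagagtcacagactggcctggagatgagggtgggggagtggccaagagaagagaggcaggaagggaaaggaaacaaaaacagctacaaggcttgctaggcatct
Prph (chr15:99054924-99055173, + strand): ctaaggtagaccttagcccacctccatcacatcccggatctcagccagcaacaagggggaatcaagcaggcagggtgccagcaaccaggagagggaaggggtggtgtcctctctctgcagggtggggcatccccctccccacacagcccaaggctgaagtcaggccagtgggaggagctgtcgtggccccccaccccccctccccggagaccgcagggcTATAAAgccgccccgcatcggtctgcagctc

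Vip held TATAAA beginning 30 bases before the start and TGACG beginning 79 bases before it, Prph held TATAAA at 31 bases, and Foxd3 held TGACGTCA at 233 bases. None of the searched letters occurred in the Scn7a window. For these 4 genes the RefSeq start lay within 4 bases of the gene start in the table. Over the 19 windows, TATAAA was in 3 against 13.6% of all 32851 RefSeq windows of that length, TGACG in 7 against 20.8%, TGACGTCA in 2 against 1.79%, ACAATG in 2 against 12.6%, and ACAAAG in 0 against 18.7%. The left part of the neuronal silencer element, TTCAGCACC, was in 0 of 19 windows and in 0.371% of all. The median number of CG dinucleotides was 9 in these windows and 7 in all windows. These matches describe letters in the windows and were not tied to the expression values.

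Levels are given as FPKM, fragments or reads per kilobase of exon relative to the mapped total of the library, scaled between the 8 libraries, so that genes can be compared per length. In the epithelia, the glial genes were the most abundant of the group. The 10 glial genes summed to 198 scaled FPKM in the bile duct library and 279.9 in the pancreatic duct library. The 4 genes shared by glia and axons summed to 20.9 and 46.0, the 8 neuronal cytoskeleton and RNA-binding genes to 10.3 and 30.0, the synapse and receptor genes Snap25, Syt1 and Ret to 8.49 and 6.203, and the 5 transmitter genes to 2.36 and 14.3. In the organoids the glial sum was between 14.1 and 18.5, most of it Mbp, and the transmitter sum was at most 0.0203. As a check of the labels, the 10 duct epithelium genes (among them Krt8, Krt18 and Krt19) summed to 2708 (bile duct) and 680.1 (pancreatic duct) scaled FPKM in the epithelia and 5176 to 11297 in the organoids. Both epithelial libraries thus held markers of duct cells beside those of nerve.

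**Figure D1:**
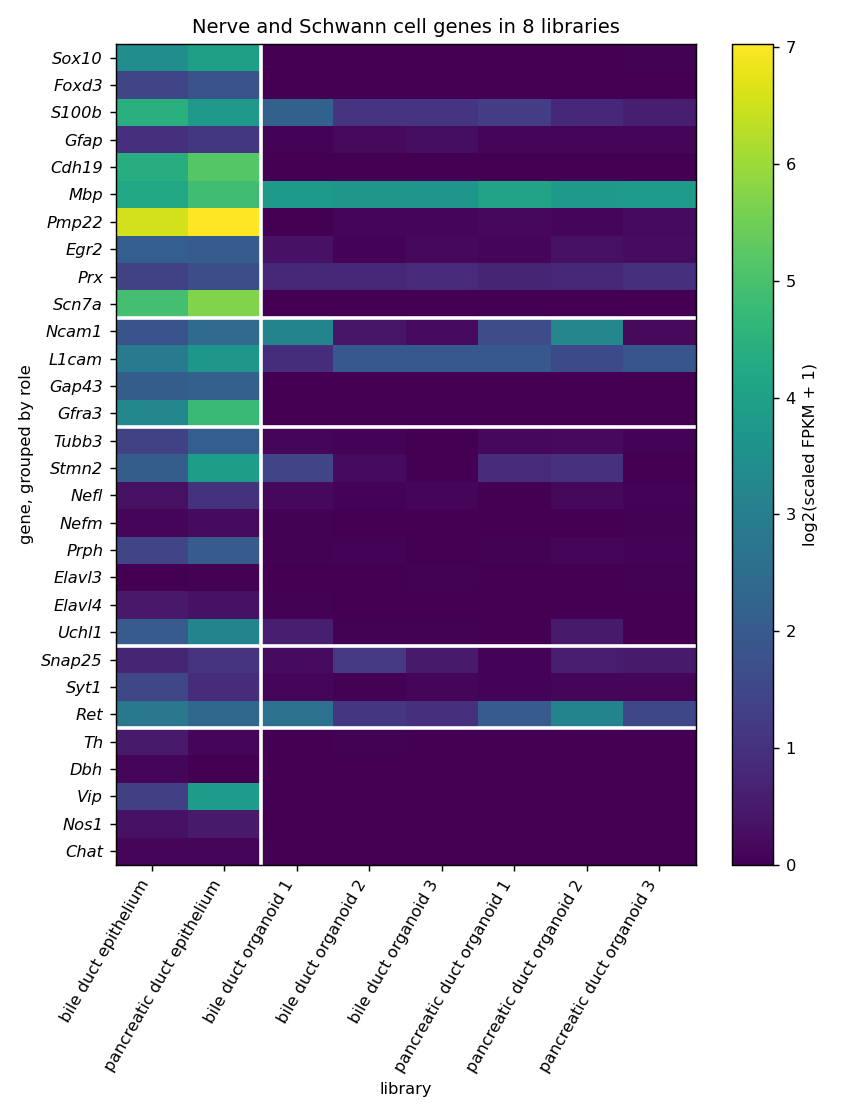
Heat map of log2(scaled FPKM + 1) for the 30 nerve and Schwann cell genes (rows, grouped by role with white lines) in the 8 libraries (columns, epithelia left of the white line). Pmp22, Scn7a and Cdh19 are bright in both epithelia and dark in all 6 organoids, several neuronal rows are dark throughout, and Mbp stays at 11.8 to 16.1 scaled FPKM in the organoids.

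The 6 organoids were compared with the 2 epithelia in a fit across all genes. The epithelia came from different organs, so their spread in this fit includes the difference between organs. Of the 30 genes, 20 had at least 1 scaled FPKM in at least 2 libraries and were tested. The number lower in organoids was 17, the number higher was 0, and Ncam1, Snap25 and Ret did not pass (limma, Benjamini-Hochberg adjusted p under 0.05 over 14967 genes). Across all genes tested, 60.6% passed, 27.3% lower and 33.4% higher in organoids. A gene that entered the test only through the epithelia had to be lower in organoids, so the count over tested members is a description. This holds for Sox10, Foxd3, Cdh19, Pmp22, Egr2, Prx, Scn7a, Gap43, Gfra3, Tubb3, Prph, Uchl1 and Vip, whose adjusted p-values in limma with no filter on low values lay between 8.70e-08 (Pmp22) and 0.00570 (Vip). With no filter on low values all 30 members entered, 25 were lower and 0 higher, while 39.2% of 29890 genes passed and 23% were lower. The 5 that did not pass in that fit were Ncam1, Elavl3, Snap25, Ret and Dbh. In that fit the median log2 difference was -1.36 over the 30 genes and -0.01 over all genes. In bulk RNA, fewer cells of a type and less RNA per cell cannot be told apart.

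Glial identity genes reached the detection limit in organoids. Sox10 (chromosome 15, 79154913 to 79164490), the master regulator of peripheral glia, stood at 9.95 scaled FPKM in epithelium of the bile duct and 14.9 in that of the pancreatic duct. It had 0 reads in all 3 bile duct organoids and in PDO1 and PDO2, and about 2 reads in PDO3. Both epithelia were thus far above every organoid, with a log2 difference of -3.72 (SE 0.14, limma adjusted p = 1.37e-07, or 8.68e-07 with no filter, lower in 6 of 6 organoids). With a pseudocount of 0.1 in place of 1 the difference was -6.87. Cdh19 (chromosome 1, 110888326 to 110977584), a cadherin of Schwann cell precursors and mature Schwann cells, had 19.7 and 35.2 scaled FPKM in the epithelia, from 1023 and 2151 reads, and 0 reads in each of the 6 organoids. Against a floor of 3 reads over the 3 organoids of an organ, the epithelial level was at least 1618-fold higher for bile duct, and at least 2776-fold higher for pancreatic duct. Foxd3 had 1.77 and 2.47 scaled FPKM in the epithelia against 0 reads in every organoid, at least 79.1-fold and 106-fold higher in the epithelium. These bounds take the epithelial value as measured, and the lower limits of the exact counting interval for Foxd3 were 62.0 and 84.1.

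S100b and Gfap, calcium-binding and intermediate filament proteins of glia, kept some reads in culture. S100b (chromosome 10, 76253853 to 76261159) reached 20.9 scaled FPKM in bile duct against 12.8 in pancreatic duct epithelium. Its organoid values were 3.57, 1.07 and 1.06 in BDO1, BDO2 and BDO3 and 1.40, 0.763 and 0.515 in PDO1, PDO2 and PDO3. Every organoid was below both epithelia and BDO1 was the highest of the 6, with a log2 difference between organoids and epithelia of -2.96 (SE 0.39, limma adjusted p = 0.000300). Gfap was low throughout, with 0.917 and 1.21 scaled FPKM in the epithelia and 0.0552 to 0.205 in the organoids, and was below the filter of the test.

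The log2 differences of the myelin genes between organoids and epithelia ranged from -6.68 for Pmp22 to -0.70 for Mbp. Pmp22 (chromosome 11, 63128982 to 63159547), a membrane protein of compact myelin that fibroblasts and other cells also express, was the most abundant of the 30 genes in the epithelia, with 93.0 scaled FPKM in bile duct against 129 in pancreatic duct. Organoids held 0 to 8 reads of it each, from 0 to 0.153 scaled FPKM, and the log2 difference was -6.68 (SE 0.14, limma adjusted p = 8.50e-09). Egr2, the zinc finger factor of myelination that is also induced in other stimulated cells, had 3.32 and 3.11 scaled FPKM in the epithelia against 0.0566 to 0.257 in organoids (log2 difference -1.87, SE 0.10, limma adjusted p = 1.32e-06), and the difference was -3.76 with a pseudocount of 0.1 in place of 1. The 10 immediate early genes, which include the relatives Egr1 and Egr3, were also all called lower in organoids, against 27.3% of all genes tested. Their part in the fall of Egr2 was not tested.

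Mbp (chromosome 18, 82475146 to 82585637), which encodes myelin basic protein, was the only member with at least 1 scaled FPKM in all 6 organoids. It stood at 17.2 scaled FPKM in bile duct and at 28.2 in pancreatic duct epithelium, and at 13.3, 12.1 and 11.8 in BDO1, BDO2 and BDO3 and 16.1, 12.7 and 13.6 in PDO1, PDO2 and PDO3. All 6 organoids were below both epithelia, and the organoid groups overlapped. The log2 difference between organoids and epithelia was -0.70 (SE 0.18, limma adjusted p = 0.0111). Without the pancreatic duct epithelium it was -0.36 and did not pass (limma adjusted p = 0.110, the lone epithelium being assumed to vary like the organoids). The table holds 1 value per gene, so the myelin and golli transcripts of this locus were not separated. Prx, a scaffold protein of myelinating Schwann cells, had 1.64 and 2.196 scaled FPKM in the epithelia against 0.663 to 0.967 in the 6 organoids, with a log2 difference of -0.71 (SE 0.11, limma adjusted p = 0.000753, or 0.00389 with no filter).

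Scn7a (chromosome 2, 66673425 to 66784914) encodes a sodium channel of non-myelinating Schwann cells, and its upstream sequence is shown above. It reached 29.6 scaled FPKM in bile duct against 50.4 in pancreatic duct epithelium, from 2639 and 5277 reads, with 0 reads in each organoid (log2 difference -5.31, SE 0.17, limma adjusted p = 7.74e-08). The epithelial level was at least 4173-fold higher for bile duct, and at least 6809.5-fold higher for pancreatic duct. This was the widest bound of any member with 0 reads in all 6 organoids.

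Of the genes shared by glia and axons, Gap43 and Gfra3 were at 0 reads in every organoid, whereas L1cam and Ncam1 were not. Gfra3 (chromosome 18, 34689903 to 34720387), the receptor for artemin on sympathetic and sensory axons and immature glia, had 8.597 and 25.9 scaled FPKM in epithelium of the bile and pancreatic ducts. Its log2 difference was -4.01 (SE 0.31, limma adjusted p = 1.40e-05), with -4.75 without the bile duct epithelium and -3.26 without the pancreatic duct epithelium. Its epithelial level was at least 331-fold higher for bile duct and at least 952-fold higher for pancreatic duct. Gap43, a growth cone protein, had 3.19 and 3.45 scaled FPKM in the epithelia. L1cam (chromosome X, 73853778 to 73896105), an axonal adhesion molecule, had 6.54 and 12.2 scaled FPKM in the epithelia, then 0.879, 2.81 and 2.82 in BDO1, BDO2 and BDO3 and 2.83, 1.98 and 2.70 in PDO1, PDO2 and PDO3. It fell in all 6 organoids, with BDO1 lowest, by 1.62 on the log2 scale (SE 0.32, limma adjusted p = 0.00282).

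Ncam1 (chromosome 9, 49502136 to 49798925), the neural cell adhesion molecule, measured 2.56 scaled FPKM in bile duct against 4.54 in pancreatic duct epithelium. BDO1, BDO2 and BDO3 had 8.001, 0.344 and 0.153, and PDO1, PDO2 and PDO3 had 2.17, 8.44 and 0.135. BDO1 and PDO2 were thus above both epithelia, and the other organoids were below both. The log2 difference between organoids and epithelia was -0.67 (SE 0.95, limma adjusted p = 0.563). It rested on single libraries, at -0.35 without the pancreatic duct epithelium, -0.41 without BDO3 or PDO3, -1.01 without BDO1 and -1.02 without PDO2.

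Of the 8 neuronal cytoskeleton and RNA-binding genes 4 were tested, and of these Tubb3, Prph and Uchl1 entered the test only through the epithelia. Stmn2 (chromosome 3, 8509360 to 8561606), a microtubule regulator of growing axons, measured 3.20 scaled FPKM in bile duct against 14.1 in pancreatic duct epithelium. BDO1, BDO2 and BDO3 had 1.75, 0.146 and 0.0182, and PDO1, PDO2 and PDO3 had 0.811, 1.00 and 0.0161. All organoids were below both epithelia. The log2 difference was -2.40 (SE 0.55, limma adjusted p = 0.00548). It was -1.48 without the pancreatic duct epithelium, -3.32 without the bile duct epithelium and -3.99 with a pseudocount of 0.1 in place of 1.

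Uchl1 (chromosome 5, 66676091 to 66687234), a deubiquitinase abundant in neurons, had 3.03 and 8.07 scaled FPKM in the epithelia. It had 14 and 12 reads in BDO1 and PDO2, and 0 or 1 read in each of the others, so the 6 organoids fell far below the epithelia (log2 difference -2.40, SE 0.31, limma adjusted p = 0.000236). This difference was -2.99 without the bile duct epithelium, -1.81 without the pancreatic duct epithelium and -4.71 with a pseudocount of 0.1 in place of 1. Tubb3, a neuronal tubulin, and Prph, the intermediate filament of peripheral neurons, had between 1.63 and 3.26 scaled FPKM in the epithelia and at most 0.121 in an organoid, and both fell (log2 differences -1.65 and -1.69). With a pseudocount of 0.1 in place of 1 these differences were -3.88 and -4.16, since a pseudocount of 1 understates the change of low genes. An antisense transcript covers 18.1% of the exon bases of Uchl1, and reads of the strands cannot be told apart without a stated strand setting.

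The other 4 neuronal cytoskeleton and RNA-binding genes were below the filter of the test. Nefl and Nefm, the light and medium neurofilament chains, stood at 0.244 and 0.0712 scaled FPKM in bile duct against 1.04 and 0.145 in pancreatic duct epithelium. Organoids held 0 to 6 reads of Nefl and 0 to 3 of Nefm. Their exons overlap on opposite strands over 1108 bases, so reads there cannot be assigned to a single gene. Elavl4, an RNA-binding protein of neuronal cell bodies, had 25 and 21 reads in the epithelia and at most 2 in an organoid. Its relative Elavl3 had 1 and 2 reads in the epithelia and 0 to 4 in the organoids, and no difference was detectable at this depth.

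Among the synapse and receptor genes, Syt1, the calcium sensor of vesicle release, had 1.80 and 0.865 scaled FPKM in the epithelia against at most 0.0977 in an organoid. Snap25, a protein of the vesicle fusion machinery, had 0.655 and 1.10 in the epithelia, 0.146, 1.25 and 0.420 in BDO1, BDO2 and BDO3, and 0.0478, 0.459 and 0.424 in PDO1, PDO2 and PDO3. BDO2 was above both epithelia, and the log2 difference did not pass (-0.40, SE 0.27, limma adjusted p = 0.224). Without BDO2 it was -0.53 and passed (limma adjusted p = 0.0355), and without the pancreatic duct epithelium it was -0.23 (limma adjusted p = 0.642). With a pseudocount of 0.1 it was -1.11.

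Ret (chromosome 6, 118151745 to 118197718) encodes the signalling receptor shared by the GDNF family co-receptors, which include Gfra3. It measured 6.04 scaled FPKM in bile duct against 4.23 in pancreatic duct epithelium. BDO1, BDO2 and BDO3 had 5.11, 1.15 and 0.949, and PDO1, PDO2 and PDO3 had 3.03, 7.99 and 1.87. PDO2 was above both epithelia and the other 5 were spread below the bile duct epithelium, with a log2 difference of -0.70 (SE 0.58, limma adjusted p = 0.319). Ret reads were thus present in organoids in which its co-receptor gene Gfra3 had none.

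The transmitter genes were scarce, apart from Vip. Vip (chromosome 10, 5639218 to 5647617), the vasoactive intestinal peptide of parasympathetic and enteric-type neurons, measured 1.501 scaled FPKM in bile duct against 13.7 in pancreatic duct epithelium, with 0 reads in each organoid. The log2 difference was -2.60 (SE 0.53, limma adjusted p = 0.00303), with -3.88 without the bile duct and -1.32 without the pancreatic duct epithelium. Th and Dbh, enzymes of catecholamine synthesis, had 12 and 3 reads in the bile duct library against 2 and 0 in the pancreatic duct library. Nos1, the neuronal nitric oxide synthase, had 35 and 69 reads, and Chat, the enzyme of acetylcholine synthesis, had 5 in each epithelium. In the 6 organoids Dbh and Chat had 0 reads and Th and Nos1 had 1 read in a single organoid each. The 10 genes of tuft cells, which also use Chat, summed to 24.4 (bile duct) and 8.13 (pancreatic duct) scaled FPKM in the epithelia and 1.32 to 7.55 in organoids. Il25, Gnat3 and Gfi1b had 0 reads in every organoid, but an epithelium held at most 1, 29 and 6 reads of them. Avil reached 7.03 in BDO2, above both epithelia. Trpm5 and Pou2f3 were higher in all pancreatic duct organoids than in their epithelium, and lower in all bile duct organoids than in theirs. The part of tuft cells in the Chat reads was not tested.

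**Figure D2:**
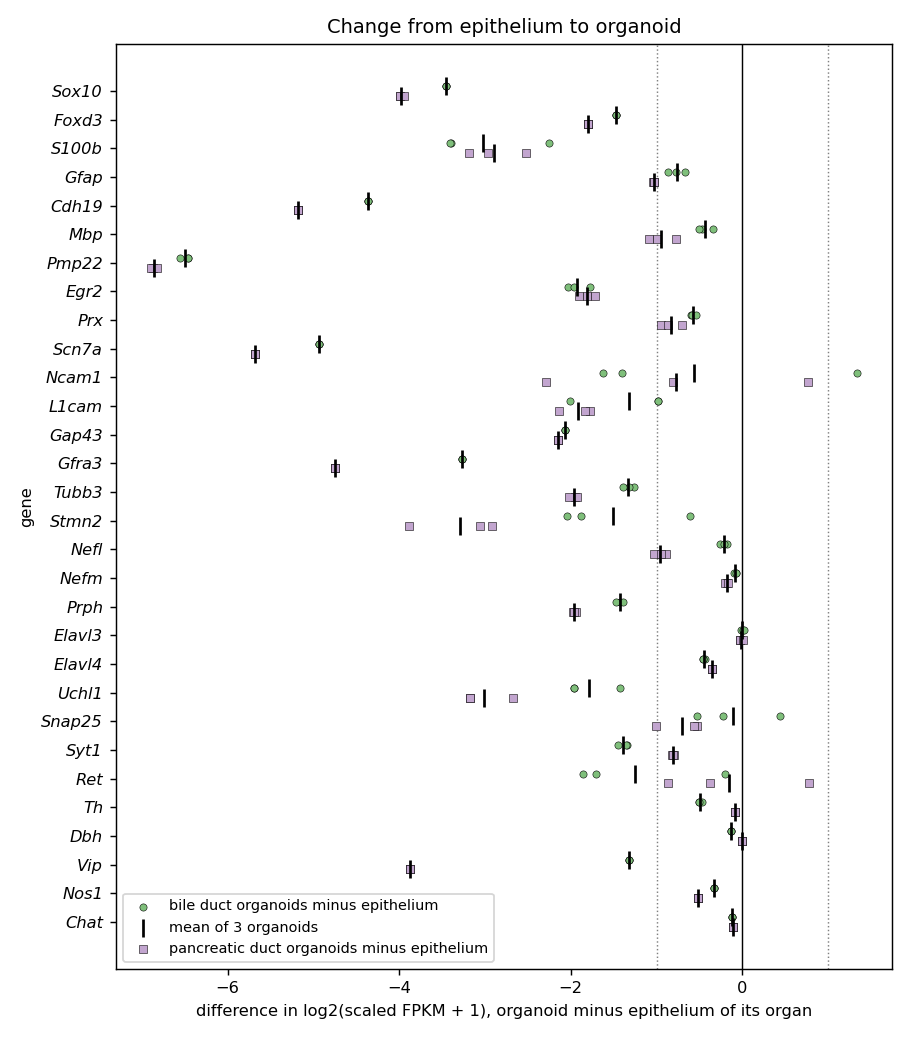
Difference in log2(scaled FPKM + 1) between each organoid and the single epithelium of its organ (x axis) for the 30 genes (y axis); circles are bile duct, squares pancreatic duct organoids, black bars the mean of 3, and dotted lines a 2-fold difference. Pmp22 lies furthest left at -6.50 and -6.86, and Ncam1, Ret and Snap25 have organoids on both sides of 0.

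Each organ was then taken alone. For bile duct, 17 of the 20 members above 1 FPKM on either side were at least 2-fold lower on average in organoids, with all 3 on the same side of the epithelium, and 0 were higher, while 39.5% of 15316 genes moved that far and 24.3% were lower. For pancreatic duct, 16 of 22 members were at least 2-fold lower and 0 higher, while 41.1% of 15086 genes moved that far and 23.5% were lower. A gene that reached 1 FPKM only in the epithelium had to be lower on average in organoids, so these counts are a description. In bile duct this held for all members above 1 FPKM except S100b, Mbp, Ncam1, L1cam and Ret. In pancreatic duct the exceptions were Mbp, Ncam1, L1cam and Ret. The median difference over all 30 members, with no filter, was -1.32 in bile duct and -1.41 in pancreatic duct. Over the members above 1 FPKM it was -1.49 and -1.96, against 0.05 over all genes counted in each organ. Each side has 1 epithelial library, so these differences have no replicate check, and on the log2(FPKM + 1) scale they understate the fall of weakly expressed genes.

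Further genes of the same cells are described by counts, in which genes that entered the test only through the epithelia had to be lower. Of 20 further Schwann cell genes, 15 were tested, 12 were lower and 3 higher in organoids, with a median log2 difference of -2.65, while over all genes tested 27.3% were lower and 33.4% higher with a median of 0.11. The 3 higher genes were Mal, Erbb3 and Ncmap. Mal, a raft protein of myelin and of apical membranes, had 34.5 and 46.8 scaled FPKM in the epithelia against 56.3 to 134 in organoids, and the neuregulin receptor Erbb3 had 21.3 and 11.2 in the epithelia and 31.6 to 45.8 in organoids. Cnp, an enzyme of myelin, had 23.5 and 35.2 scaled FPKM in the epithelia against 12.6 to 17.5 in organoids. Of 20 further autonomic and sensory neuron genes, 7 were tested, 5 were lower and 2 higher (Tubb2b and Map2), with a median of -1.17, to be read against the same shares over all genes. The sums of these lists did not fall in every organoid. The further Schwann cell genes summed to 193 (bile duct) and 276 (pancreatic duct) scaled FPKM in the epithelia and 138 to 203 in organoids. The further neuron genes summed to 28.8 and 36.8 in the epithelia and 15.4 to 76.7 in organoids.

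The summed levels of markers of other tissues were lower in every organoid than in either epithelium. Called lower were 10 of 10 fibroblast, 8 of 8 smooth muscle, 8 of 8 endothelial, 7 of 7 tested leukocyte, 10 of 10 tested islet endocrine and 2 of 3 tested tuft cell genes, against 27.3% of all genes tested. Most of these genes entered the test only through the epithelia, so their direction was set by the filter. Of the 10 duct epithelium genes, 8 were higher and 0 lower, against 33.4% of all genes called higher. The fibroblast genes summed to 1851 (bile duct) and 1907 (pancreatic duct) scaled FPKM in the epithelia and 0.609 to 3.31 in organoids. The smooth muscle genes summed to 2134 and 3788 in the epithelia and 0.318 to 0.653 in organoids. The endothelial genes summed to 435 and 782, then 1.09 to 1.78, and the leukocyte genes to 398 and 395, then 2.63 to 12.9. The islet genes summed to 112 and 230, then 0.331 to 2.05, with Ins1, Gcg, Ppy and Neurod1 at 0 reads in every organoid. What part of the fall of Pmp22 or of any other member came with these cells was not tested.

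The epithelia of the ducts were then set side by side, with 1 library each and so no test. Of 23 members with at least 1 FPKM in either epithelium, 4 were at least 2-fold higher in pancreatic duct (Vip, Stmn2, Gfra3 and Uchl1) and 0 at least 2-fold higher in bile duct, counted on the log2(FPKM + 1) scale. Among all 15317 such genes, 13.3% were 2-fold apart, made up of 4.54% higher in pancreatic duct and 8.73% higher in bile duct. Vip differed most, from 62 reads in bile duct to 666 in pancreatic duct epithelium, a scaled ratio of 9.14 (95% counting interval 7.04 to 12.1). The ratio was 4.40 for Stmn2 (3.80 to 5.11), 3.00 for Gfra3 (2.57 to 3.52) and 2.66 for Uchl1 (1.98 to 3.63), where the intervals are exact, conditional on the summed reads, and cover counting error only. Differences of low genes are smaller on the scale of the count, so Nefl, with 10 and 50 reads and a ratio of 4.25 (2.13 to 9.40), was not counted. Nor was Syt1, with 182 and 103 reads and a ratio of 0.481 (0.374 to 0.616), which was over 2-fold higher in bile duct by its FPKM.

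Of the 10 glial genes, 8 were higher in pancreatic duct epithelium, each by less than 2-fold, and for Foxd3 (1.39, 0.969 to 2.02) and Gfap (1.32, 0.903 to 1.95) the counting interval held 1. The ratio was 1.79 for Cdh19 (1.66 to 1.93), 1.70 for Scn7a (1.62 to 1.78), 1.64 for Mbp (1.55 to 1.74), 1.498 for Sox10 (1.32 to 1.71) and 1.39 for Pmp22 (1.33 to 1.46). S100b went the other way, at 0.613 (0.522 to 0.718), as did Ret at 0.701 (0.614 to 0.801). Over all 30 members, with no filter, 22 had a positive and 8 a negative difference, with a median log2 difference of 0.34. Over the 23 members with at least 1 FPKM the median was 0.56, against 0.04 over all genes counted. Of the summed lists of non-neural cells given above, the islet endocrine, endothelial and smooth muscle genes were also higher in the pancreatic duct library. The duct epithelium and tuft cell genes were higher in the bile duct library, and the fibroblast (1851 and 1907) and leukocyte (398 and 395) sums were close. The part of these cells in the differences of the members was not tested. With single libraries, the organ and the make-up of the dissected piece cannot be told apart.

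**Figure D3:**
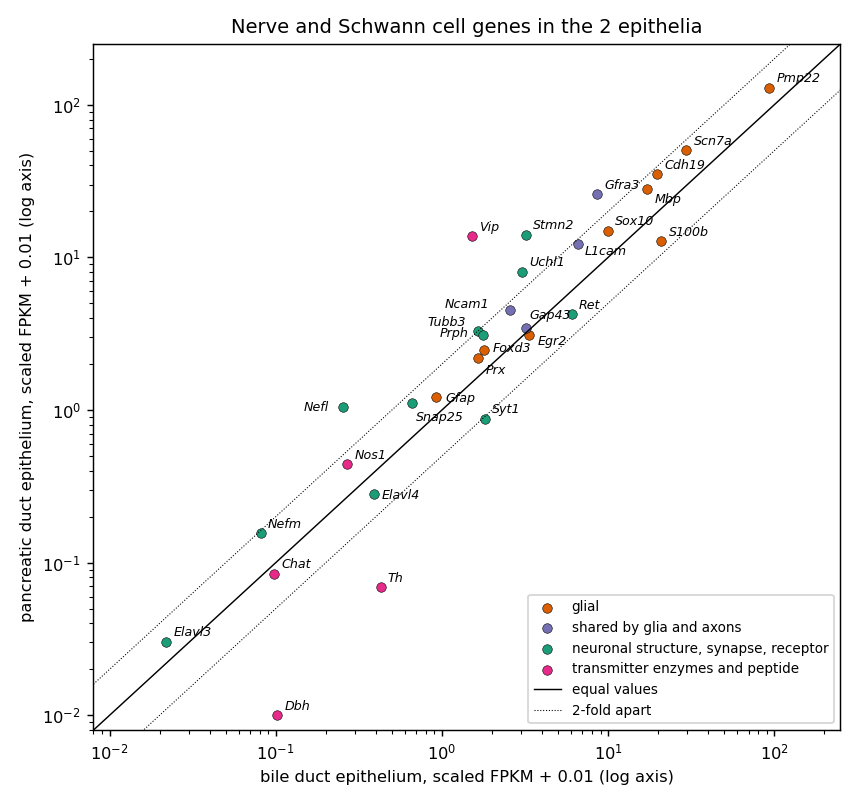
Scaled FPKM + 0.01 of the 30 genes in bile duct epithelium (x, log axis) and pancreatic duct epithelium (y, log axis), coloured by role; the solid line marks equal values and dotted lines a 2-fold difference. Vip and Stmn2 stand above the upper line at 13.7 and 14.1 scaled FPKM in pancreatic duct, while S100b, Ret and Syt1 lie below the solid line.

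Which members were still expressed in organoids was asked with a threshold of 1 scaled FPKM in at least 3 of 6 organoids. It was met by 5 of the 30 genes: Mbp in 6 organoids, L1cam and Ret in 5, S100b in 4 and Ncam1 in 3. Of all 31228 genes, 12043 met it. Just outside was Stmn2, with 2 organoids at or above 1, and then Snap25 with 1. At 0 reads in all 6 organoids were 8 members, namely Foxd3, Cdh19, Scn7a, Gap43, Gfra3, Vip, Dbh and Chat. The other 22 members had reads in some organoid, as did 26795 of all 31228 genes. The epithelia themselves held at most 3 reads of Dbh and 5 of Chat.

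Between bile duct and pancreatic duct organoids, 0 of these 5 genes and 0 of 12043 genes in all (0%) passed in limma at an adjusted p under 0.05. The unadjusted p was under 0.05 for 298 genes, none of them a member, and limma voom on implied reads called 0 genes, with 234 at the unadjusted threshold. The log2 difference of bile duct minus pancreatic duct organoids was 0.53 for S100b (SE 0.37), -0.17 for Mbp (SE 0.12), -0.21 for L1cam (SE 0.31), -0.67 for Ret (SE 0.59) and -0.43 for Ncam1 (SE 1.05), each with a limma adjusted p of 1.00. When each organoid was left out, S100b ran from 0.15 (without BDO1) to 0.73, Ret from -1.20 (without BDO1) to -0.21 (without PDO2) and Mbp from -0.24 to -0.078 (without PDO1). For Ncam1 the spread within each group was larger than its mean difference, at 2.83 ± 4.48 scaled FPKM (SD, n = 3) for bile duct against 3.58 ± 4.33 (SD, n = 3) for pancreatic duct.

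The variation of Ncam1, Ret and Stmn2 ran across the organ groups. For each of these genes, BDO1, PDO1 and PDO2 were the highest of the 6, and BDO2, BDO3 and PDO3 the lowest. The highest value was 62.5 times the lowest for Ncam1, 8.42 times for Ret and 109 times for Stmn2, where the lowest rests on 2 reads. Mki67, a gene of dividing cells, had 24.5, 31.2 and 18.4 scaled FPKM in BDO1, PDO1 and PDO2, and 64.2, 61.8 and 53.2 in BDO2, BDO3 and PDO3. Xist, the RNA of the inactive X chromosome, separated the same libraries, at 20.4, 23.7 and 20.9 in BDO1, PDO1 and PDO2 and at 85.2, 83.5 and 76.1 in BDO2, BDO3 and PDO3. The part of either in the values of Ncam1, Ret and Stmn2 was not tested. The islet endocrine genes, of which 4 of 15 were at 0 in all 6 organoids, summed to 1.66, 0.331 and 0.479 scaled FPKM in BDO1, BDO2 and BDO3 and to 0.406, 2.05 and 0.544 in PDO1, PDO2 and PDO3. This islet sum was lower in PDO1 than in BDO3 and PDO3, and Scg5 made up 1.48 of it in BDO1. Other members did not follow the order of Ncam1, Ret and Stmn2. BDO1 was lowest for L1cam and second lowest for Snap25. S100b was lower in PDO2 than in BDO2 and BDO3, and Uchl1 had 0 reads in PDO1. Mbp and Prx were higher in PDO3 than in BDO1.

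**Figure D4:**
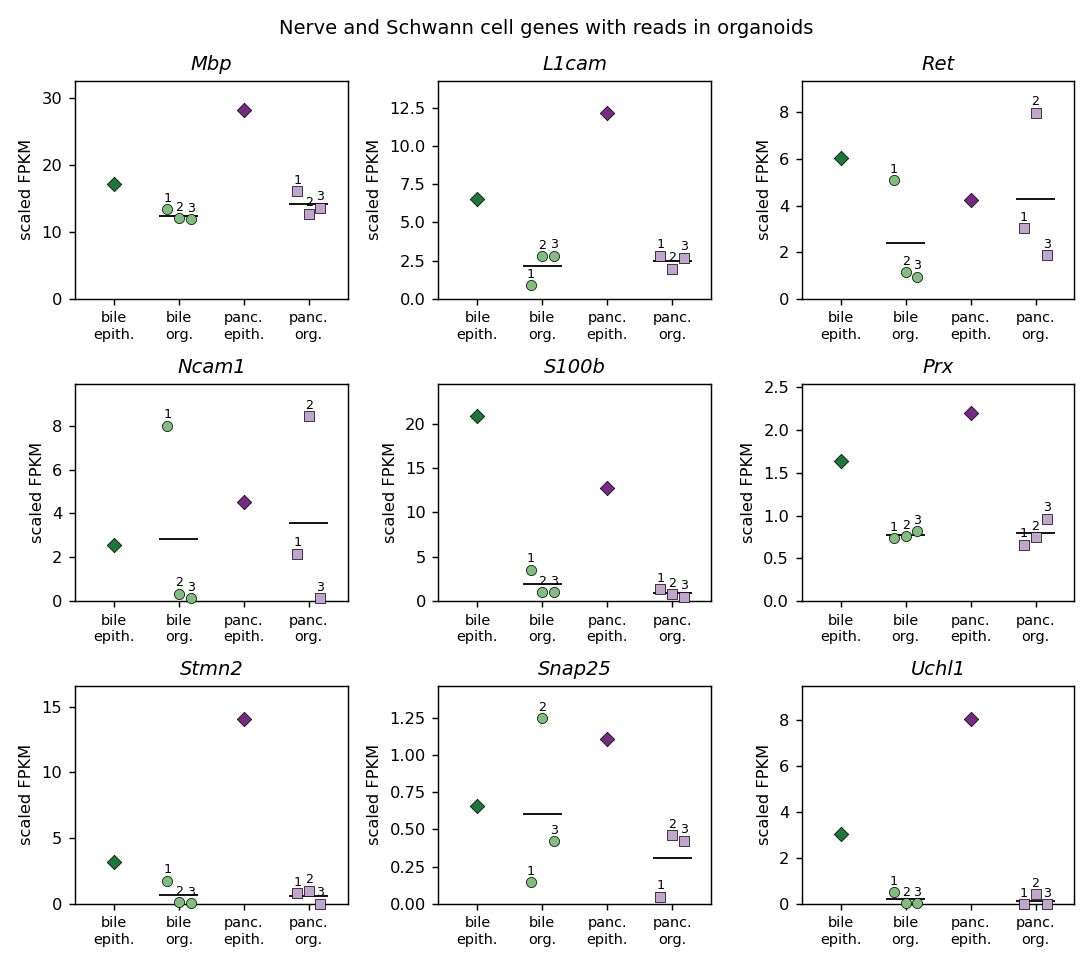
Scaled FPKM (y axis, from 0) of 9 members with at least 0.4 in some organoid, in each epithelium (diamonds, 1 library) and organoid group (circles and squares numbered by replicate, line at the mean of 3). Ncam1 is at 8.001 in BDO1 and 8.44 in PDO2, while Mbp keeps a narrow range.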

How the data were processed

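The deposited file is 1 table by the authors with FPKM values for 31228 genes and 1 column per library; 0 per-sample columns were left aside. The unit was read from the values, since no header names it. The submitters' processing notes name Bowtie2 2.2.3, HISAT2 2.1.0, TopHat2 and HTSeq 0.6.0; build, filters and strand setting are not given in the sources used here. Coordinates are those of the table and equal GENCODE M21 (GRCm38) for 27 of the 30 members.

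Read numbers were recovered from FPKM and GENCODE M21 merged exon lengths; 90.5% of genes came out whole within 0.05 of a read in all 8 libraries. For Sox10, Mbp, Gfra3 and Prph, which did not, they are approximate. FPKM were scaled by an unweighted trimmed mean of log ratios over all 8 libraries (30% and 5% trimmed). Tests were limma 3.58.1 with an intensity trend (R 4.3.3) on log2(FPKM + 1), Benjamini-Hochberg adjusted over all genes that reached 1 FPKM in 2 or more of 8 libraries (or 3 or more of 6 organoids). Where 1 library stood on a side, a log2 difference of at least 1 was counted with no test, with 95% exact counting intervals. On simulated data with 14967 genes and 200 changed, the test of organoids against epithelia recovered 89% of 4-fold and 66% of 2-fold changes, with 7 false among 162 calls. For the organoid groups, with 12043 genes, these were 90%, 49% and 16 of 155. In both simulations every library, epithelia included, was given the spread of organoids within an organ. Changed genes were drawn from those with an organoid mean above 2 on the log2(FPKM + 1) scale. The rates therefore do not cover genes near 0 in organoids or the spread between the 2 epithelia.

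All members are accounted for: those with at least 5 scaled FPKM in a library or still expressed in organoids in full, the others by counts and ranges. Other lists are given by counts and up to 3 genes of highest mean; genes of these lists named beyond that, such as those at 0 in every organoid, were chosen after their values were seen. Members and lists were chosen with earlier results of these data known. Alternatives covered scaling, pseudocount, filter, trend, voom, organ as a covariate, the replicate block and leaving out each library.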

Additional observations from a re-analysis of the deposited data

How the results depend on the processing

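With a minimum of 5 FPKM in place of 1, which leaves fewer members to test, 8 of 10 members were lower in organoids than in epithelia in place of 17 of 20. Over all genes, 2267 of 10005 were lower at that minimum in place of 4079 of 14967. Members 2-fold apart numbered 8 in place of 17 between bile duct organoids and epithelium, and 10 in place of 16 between pancreatic duct organoids and epithelium. Members still expressed in organoids numbered 9 at 0.1 FPKM in at least 3 of 6 and 1 at 1 FPKM in all 6, in place of 5. The other 51 recomputed counts of members stayed within 1.5 times. Of the recomputed values of single members, 539 kept their direction and call or spread, 33 moved past the spread, 2 lost their call (Mbp and Stmn2), 1 gained it (Snap25) and 3 turned. FPKM as deposited moved the median log2 difference of all genes between organoids and epithelia from 0.11 to 0.23, and 17 members were still called. Between the organoid groups, the Ncam1 difference ran from -1.38 to 0.34 when each organoid was left out, turning to 0.10 without BDO3 and 0.34 without PDO2, and that of L1cam from -0.38 to 0.13, turning without BDO1; the cause was not tested, and neither gene passed in any of these fits. Genes at an unadjusted p under 0.05, 298 in the reported fit, ran from 158 to 1034 when each organoid was left out and were 688 with no filter and 163 at 5 FPKM. Without PDO3, 11 of 12043 genes passed, none a member. The replicate block called 0 members and 0 genes. Same-numbered organoids deviated from their group means with correlations of -0.10, -0.44 and 0.48, and 2 of 6 organoids were closest to their own number. With 3 pairs this cannot tell whether same-numbered organoids share more than a number. A gene of 1 kb needs 1 read for 0.0480 to 0.0777 FPKM, which limits Elavl3, Nefm, Th, Dbh and Chat.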

Other observations

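Values of 5 further neuronal genes in the single epithelial libraries are given here, chosen after they were seen. Npy, a peptide of sympathetic axons, measured 1.75 scaled FPKM in bile duct against 10.4 in pancreatic duct epithelium, the same direction as Vip. Ddc, which makes dopamine and serotonin from their precursors, had 3.86 and 0.440, the same direction as Th. Of 2 sensory peptide genes, Calca had 4 reads in each library and Tac1 had 13 in bile duct and 30 in pancreatic duct. The monoamine vesicle transporter Slc18a2 had 4.40 and 2.25, and was still present at 0.670 to 1.21 in the organoids.

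Tubb2b and Map2, a tubulin and a microtubule-associated protein best known from neurons, were higher in organoids than in epithelia. Tubb2b stood at 4.99 (bile duct) and 5.07 (pancreatic duct) scaled FPKM in the epithelia, at 68.4, 11.7 and 12.6 in BDO1, BDO2 and BDO3 and 36.6, 52.3 and 10.6 in PDO1, PDO2 and PDO3. Its 3 highest organoids were the same libraries as for Ncam1, Ret and Stmn2. Map2 had 1.17 and 1.84 in the epithelia and 3.33 to 6.75 in the organoids.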
